A study of Mustela putorius furo and Mus musculus with 4 samples.

Results

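The transcripts of the mitochondrial genome were described in cultured mouse astrocytes. They were taken as every gene whose symbol begins with mt- in the mouse expression values, which gave 37 of 55257 rows. These were 13 protein-coding genes, called mRNAs below, 2 ribosomal RNAs (rRNA) and 22 transfer RNAs (tRNA). The choice used only the symbol, not the measured level. The ferret values held 0 such symbols among 16853 rows and 0 of 21 other spellings of these mRNAs and rRNAs, so levels are given for the mouse alone and no species difference was computed for any mitochondrial gene.

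RNA was sequenced from primary astrocytes of the cerebral cortex, with 2 mouse libraries (strain ICR, postnatal day 1 to 3) and 2 ferret libraries (postnatal day 1), and no group carried a genetic change. In both species, mixed glia spent 14 days in serum before they were shaken and plated again, lost serum on day 3 after that and gave RNA on day 7, and a mouse flask pooled the cortices of 4 pups. Libraries were stranded and selected for poly(A) RNA, and nothing in the labels ties the duplicates of a species to distinct cultures.

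The mitochondrial genome is a small circle that is transcribed from both strands into long precursors. In these precursors the tRNAs lie between most of the mRNAs and rRNAs, and the nuclear-encoded nucleases that cut out the tRNAs thereby free the other RNAs, most of which then receive a poly(A) tail. All of the mRNAs encode core subunits of the respiratory chain and ATP synthase, whose other subunits are encoded in the nucleus, and astrocytes use this chain beside a high rate of glycolysis.

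The map of these genes bears on how their levels can be read, since neighbours touch or overlap. On GRCm38, mt-Atp8 (chrM:7766-7969, plus strand, 204 bases) shares 43 bases with mt-Atp6, and both encode subunits of the membrane part of ATP synthase (complex V). The whole of mt-Atp8 is shown because it is the shortest protein-coding gene of the mitochondrial genome and had the highest mean level. The capitals mark the start codon of mt-Atp6, which lies within mt-Atp8 but in another reading frame, and the stop codon of mt-Atp8.
mt-Atp8: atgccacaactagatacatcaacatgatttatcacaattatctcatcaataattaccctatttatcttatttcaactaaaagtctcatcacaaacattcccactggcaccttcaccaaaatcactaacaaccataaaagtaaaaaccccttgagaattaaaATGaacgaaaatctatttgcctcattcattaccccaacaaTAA

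The complex I subunit genes mt-Nd4l and mt-Nd4 share 7 bases in the same way. No tRNA gene lies between the genes of either pair, so the genes of a pair need not have separate mRNAs. The end of mt-Nd4l (chrM:10134-10173, plus strand) is shown with the start codon of mt-Nd4 and its own stop codon in capitals.
mt-Nd4l: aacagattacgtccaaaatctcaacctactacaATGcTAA

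The ends of the mRNAs differed in the genome sequence. A full stop codon closed 10 of the 13 mRNAs, TAA in 8 and TAG in 2, whereas the other 3 ended in a lone T, which becomes a stop codon only when the poly(A) tail is added. Those 3 are mt-Cytb (cytochrome b of complex III), mt-Co3 (a core subunit of complex IV) and mt-Nd4. Their last 21 bases are shown beside those of mt-Co1, the catalytic subunit of complex IV, with the encoded part of the stop codon in capitals. They lie at chrM:15268-15288, chrM:9370-9390, chrM:11524-11544 and chrM:6852-6872, all on the plus strand.
mt-Cytb: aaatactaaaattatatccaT
mt-Co3: ccatttattgatgaggatctT
mt-Nd4: taattacaggcctgacaataT
mt-Co1: acctatgtaaaagtaaaaTAA

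The start codon was ATG in 9 mRNAs, GTG in mt-Nd1, ATA in mt-Nd2, ATC in mt-Nd5 and ATT in mt-Nd3, the last 4 all being subunits of complex I.

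The levels are FPKM, fragment numbers scaled by exon length and by the mapped fragments of the library, which is meant to allow comparison between genes. For genes shorter than the reads the scaling was uneven. In replicate 1 the tRNA values were multiples of 75.7 FPKM at 69 bases and of 29.7 FPKM at 71 bases. The tRNA values can therefore not be compared with those of longer genes per length. Whether the short mRNAs mt-Atp8 and mt-Nd4l can be was not tested. All 13 mRNAs were above 0 in both mouse libraries and carried 90.3% and 88.7% of the FPKM of the 37 rows. The 22 tRNA rows carried 9.18% and 10.7%, and the 2 rRNA rows 0.545% and 0.529%. Together the 37 rows made up 8.70% of the summed FPKM in replicate 1 and 8.57% in replicate 2 (mean 8.64% ± 0.0932, SD, n = 2), and the 13 mRNAs alone 7.86% and 7.61%. FPKM counts a short gene as fully as a long one, and when each value was multiplied by exonic length the 37 rows made up 1.93%.

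mt-Atp8 and mt-Co1 stood above the rest. mt-Atp8 had 8088 FPKM in replicate 1 and 6976 FPKM in replicate 2, and mt-Co1 had 7169 and 7256 FPKM. Their values overlapped between the libraries, so that mt-Atp8 was the highest row of all in replicate 1 and mt-Co1 the highest in replicate 2. The next level was that of mt-Cytb, with 4011 and 4052 FPKM, which mt-Co1 exceeded 1.79-fold in the mean.

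The next 4 mRNAs lay in a narrow range. mt-Co3 had 3374 and 3522 FPKM, and mt-Co2, a further core subunit of complex IV, had 3280 and 3293 FPKM. mt-Nd1 had 3090 and 3128 FPKM and mt-Atp6 had 2974 and 3069 FPKM. The duplicates of neighbours in this order did not overlap, but the means of neighbours among these 4 differed only 1.03-fold to 1.06-fold, and for mt-Nd1 against mt-Atp6 by less than the mt-Atp6 duplicates differed from each other.

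The other 6 mRNAs, all encoding subunits of complex I, were lower. mt-Nd6, the only mRNA encoded on the minus strand, had 1917 and 1946 FPKM and mt-Nd4 had 1851 and 1884 FPKM. mt-Nd2 had 1858 and 1833 FPKM, which overlapped the values of mt-Nd4. The values of mt-Nd4l (1565 and 1625 FPKM) overlapped those of mt-Nd5 (1562 and 1576 FPKM). mt-Nd3 was the lowest with 578 and 599 FPKM, and mt-Nd5 exceeded it 2.67-fold in the mean. Over the whole order, 9 of 12 neighbouring pairs did not overlap, 3 did, and the highest mean was 12.8-fold the lowest.

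**Figure D1:**
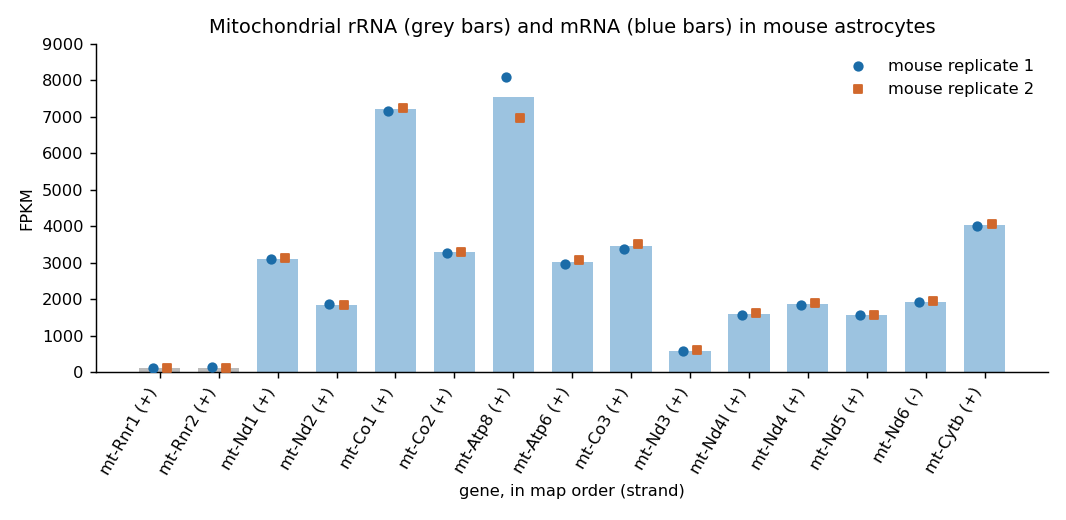
FPKM of the 2 rRNAs (grey bars) and 13 mRNAs (blue bars) of the mouse mitochondrial genome in map order, with the strand in brackets; bars are the mean of 2 libraries, circles replicate 1 and squares replicate 2. mt-Atp8 and mt-Co1 stand highest at 7532 and 7213 FPKM, mt-Nd3 is the lowest mRNA at 589 FPKM, and the duplicates are visibly apart only for mt-Atp8.

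The mRNA rows of one complex did not share one level. The 7 complex I mRNAs ranged from 589 to 3109 FPKM in the mean, with a median of 1846 FPKM, and the 3 complex IV mRNAs from 3287 to 7213 FPKM. Within the overlapping pair of complex V, whose rows need not stand for separate mRNAs, the mean of mt-Atp8 was 2.49-fold that of mt-Atp6. It was 1.25-fold once the identical nuclear copy of mt-Atp6 described below was added to mt-Atp6. Only annotated copies were searched and none was found for mt-Atp8, so the second ratio raises mt-Atp6 alone. Fragments from the shared bases can belong to either gene, and the part of such fragments in these levels was not tested.

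The 2 rRNA genes were far below the mRNAs in these poly(A)-selected libraries. mt-Rnr1, the small rRNA, had 122.8 and 122.7 FPKM, and mt-Rnr2, the large rRNA, had 126.9 and 120.2 FPKM. The values of the 2 genes overlapped, and each was below the lowest mRNA in both libraries.

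Among all rows of the mouse values, mitochondrial genes were at the top. Of the 20 highest rows by mean FPKM, 8 were mitochondrial, 7 of them mRNAs and 1 the tRNA gene mt-Ts1. No nuclear row (0 of 55220) had a mean above that of mt-Atp8 or mt-Co1, 10 exceeded the median mitochondrial mRNA (3021 FPKM) and 72 exceeded mt-Nd3. Of the 10, 6 were ordinary nuclear genes: Fth1 (ferritin heavy chain, 4334 and 4583 FPKM), the intermediate filament gene Vim (4142 and 4381), Cst3 (cystatin C, 3723 and 4060), Tmsb4x (thymosin beta 4, 3175 and 3200), Apoe (apolipoprotein E, 3035 and 3315) and Pea15a (2948 and 3150). The other 4 were annotated nuclear copies of mitochondrial genes, as were 7 of the 72.

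The cells carried astrocyte markers and also RNA of other cell types. All 11 astrocyte markers were present, from Sox9 at 32.6 and 34.4 FPKM to Vim, with Gfap at 1429 and 1546 FPKM. All 10 microglial and all 8 meningeal fibroblast markers had a mean of at least 1 FPKM (sums of 683 and 670, and of 1576 and 1550 FPKM). Of the oligodendrocyte lineage 6 of 10 markers did so (sums of 131 and 138 FPKM, of which Olig1 alone had 107 and 117, and Mog at 0.095 and 0), of 8 neuronal markers with a row 3 (sums of 156 and 161 FPKM, of which Stmn2 alone had 124 and 127, and Rbfox3 at 0.067 and 0.084) and of 5 endothelial markers 1 (sums of 23.8 and 24.3 FPKM, Cldn5 at 0 in both). In bulk RNA the share of these cells in the mitochondrial levels was not tested, and fewer cells of a type and less RNA per cell cannot be told apart.

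The duplicates agreed closely on the mRNAs, except for mt-Atp8. On the log2(FPKM + 1) scale, replicate 2 differed from replicate 1 by a median of 0.018 over the 13 mRNAs, and 11 of them were higher in replicate 2. The corresponding median was 0.020 over 14453 nuclear rows with a mean of at least 1 FPKM and 0.054 over the 100 highest nuclear protein-coding rows. Of the 14453 rows 58.3% were higher in replicate 2, and of the 100 highest 91%, against 84.6% of the mRNAs. mt-Atp8 differed by -0.21 on this scale, the other 12 mRNAs by -0.02 (mt-Nd2) to 0.06 (mt-Co3), and the 91 nuclear protein-coding rows of at least 500 FPKM by -0.06 to 0.16. None (0 of 91) of these protein-coding rows was as far below its replicate 1 value as mt-Atp8, whereas among all 100 nuclear rows of at least 500 FPKM 2 were, the microRNA row Mir6236 (-2.01) and the rRNA row CT010467.1 (-0.28), both chosen after their values were seen. The mt-Atp8 row alone made up 1.54% of all FPKM in replicate 1 and 1.30% in replicate 2. Without it, the other 12 mRNAs made up 6.32% and 6.30%.

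The tRNA rows divided by strand. Of the 14 tRNA genes on the plus strand, 3 were above 0 in a library and 11 were listed at 0 in both. Of the 8 on the minus strand, 7 were above 0 and only mt-Ty was listed at 0 in both. The plus-strand rows summed to 199.6 and 34.7 FPKM and the minus-strand rows to 4002 and 4892 FPKM. The minus strand also encodes mt-Nd6, whereas the other 12 mRNAs and both rRNAs lie on the plus strand. The tRNA genes are 59 to 75 bases long, shorter than the reads, and an exact 0 in these values can be a failed estimate. The part of gene length in the values was not tested. The strand setting of Cufflinks is not given in the sources used here. Whether minus-strand rows hold fragments of RNAs from the plus strand was not tested.

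mt-Ts1, one of the serine tRNA genes, held most of the FPKM of the tRNA rows, with 3329 and 3435 FPKM. Whether fragments of mt-Co1 RNA were counted in this row was not tested. mt-Ts1 lies on the minus strand at chrM:6870-6938, and its last 3 bases are antisense to the stop codon of mt-Co1. It is shown with those bases in capitals, 5′ to 3′ on its own strand, beside mt-Tq, the glutamine tRNA gene (chrM:3772-3842, minus strand), which ranked next.
mt-Ts1: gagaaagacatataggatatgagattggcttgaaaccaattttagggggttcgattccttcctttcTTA
mt-Tq: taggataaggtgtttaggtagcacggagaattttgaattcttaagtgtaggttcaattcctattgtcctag

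mt-Tq had 296.9 FPKM in replicate 1 and 604.8 FPKM in replicate 2. mt-Tp, for proline, had 195 and 271 FPKM. mt-Tc, for cysteine, was listed at 0 in replicate 1 and had 413 FPKM in replicate 2. The duplicates thus disagreed on these rows far more than on the mRNAs. mt-Te, for glutamate, had 75.7 and 140 FPKM, and mt-Tl1, one of the leucine tRNA genes, had 75.2 and 34.7 FPKM. Of the 10 tRNA rows above 0, only mt-Ts1 and mt-Tn, for asparagine (29.7 and 27.5 FPKM), differed by under 10% between the libraries, and mt-Tn was chosen after its values were seen.

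The tRNA values moved in coarse steps. Among tRNA genes of equal length in a library the values were whole multiples of one step, within a tolerance of 0.2%. At 69 bases the step was 75.7 FPKM in replicate 1 and 70.1 FPKM in replicate 2. mt-Ts1 was then 44 and 49 steps and mt-Te 1 and 2 steps, mt-Te being the lowest value of replicate 2 at this length. At 71 bases the step was 29.7 and 27.5 FPKM, which put mt-Tq at 10 and 22 steps and mt-Tn at 1 step in each library. A row of 1 step at 69 bases, such as mt-Te in replicate 1, ranked 1115 of 55257 rows. FPKM does not say how many fragments a step stands for, and mt-Tl1, and mt-Tc and mt-Tp in replicate 2, were alone at their length, so that no step could be derived for them.

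**Figure D2:**
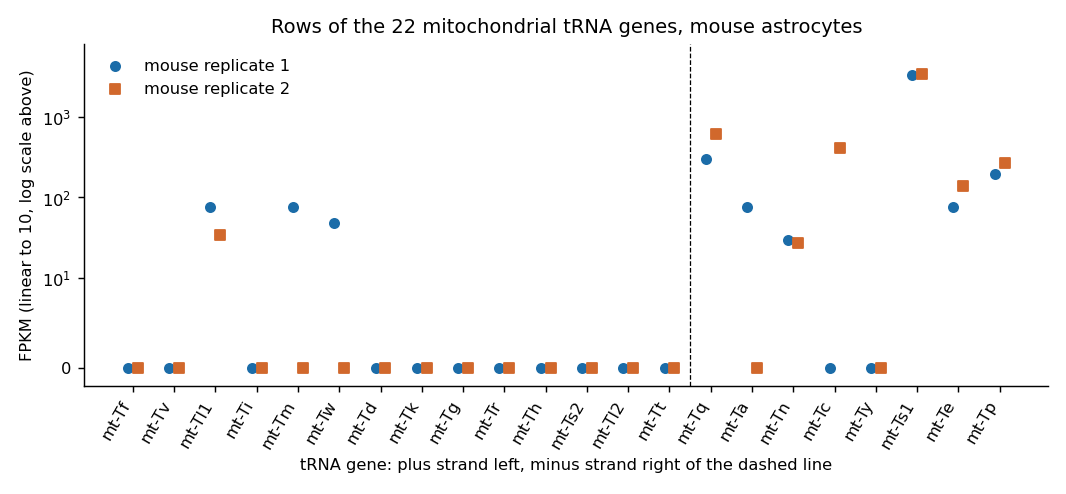
FPKM of the 22 mitochondrial tRNA rows in 2 mouse libraries (circles replicate 1, squares replicate 2), on an axis that is linear up to 10 FPKM and logarithmic above; genes on the plus strand stand left of the dashed line and those on the minus strand right of it. On the plus strand 3 of 14 genes are above 0 in a library, on the minus strand 7 of 8, with mt-Ts1 highest at 3329 and 3435 FPKM.

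Several of the mRNAs have near-identical copies in the nuclear genome, so that a read cannot always be assigned to one place. A search of the GENCODE transcripts against the mitochondrial genes found 11 annotated pseudogenes with at least 95% identity over at least 100 bases and a mean of at least 1 FPKM. Of these, 7 lie side by side at chr1:24611535-24616197 (4663 bases, minus strand), in the order of their mitochondrial counterparts from mt-Co1 to mt-Nd4, with 5 identical to the mitochondrial gene over the aligned stretch. The other 2 differ from it at 1 base each: T3C in Gm28438 against mt-Nd3 and A1066T in Gm29216 against mt-Co1, counted from 1 at the first base of the mitochondrial gene, with the mitochondrial base first.

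These differences are shown in capitals, since within the aligned stretches they are the only bases at which gene and copy differ. mt-Nd3 is chrM:9459-9491 on the plus strand and Gm28438 chr1:24613087-24613119 on the minus strand, mt-Co1 is chrM:6390-6423 on the plus strand and Gm29216 chr1:24616155-24616188 on the minus strand.
mt-Nd3: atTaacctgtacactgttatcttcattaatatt
Gm28438: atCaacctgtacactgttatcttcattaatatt
mt-Co1: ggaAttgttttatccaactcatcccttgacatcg
Gm29216: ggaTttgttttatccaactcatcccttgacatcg

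Where a copy of at least 99% identity spanned nearly the whole mitochondrial gene, its FPKM was close to that of the gene. Gm28437, the copy of mt-Co3, had 3379 and 3528 FPKM against 3374 and 3522 for the gene, and Gm28661, the copy of mt-Co2, had 3298 and 3310 against 3280 and 3293. Gm10925, the copy of mt-Atp6, had 2988 and 3083 FPKM against 2974 and 3069. Gm10222 (mt-Nd4l) had 1566 and 1633 FPKM, and Gm28438 (mt-Nd3) had 585 and 607 FPKM. Across these 5 copies and both libraries, the copy differed from its gene by 0.0447% to 1.33%, which was less than the gene's own difference between duplicates for all but Gm28661.

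Copies of part of a gene had lower values. Gm29216 covers 31.3% of mt-Co1 and had 4979 and 4986 FPKM, or 0.694 and 0.687 of the gene's value. Gm28439 covers 63.6% of mt-Nd4 and had 1088 and 1050 FPKM, or 0.588 and 0.558 of it. For these 7 copies the share of read-length windows of the mitochondrial gene that recur unchanged in the copy ran from 26.2% for mt-Co1 to 99.9% for mt-Co3.

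Copies with less identity were far lower. On chromosome 2, Gm13340 is 97.6% identical to mt-Co1 and had 231 and 215 FPKM, about 0.03 of the gene's value. Gm13341 is 95.9% identical to mt-Co2 and had 159 and 136 FPKM, and Gm13339 is 96.7% identical to part of mt-Nd2 and had 13.3 and 7.92 FPKM. Gm4076 on chromosome 13, 95.2% identical to part of mt-Nd5, had 2.42 and 1.86 FPKM. The authors ran STAR with default settings, and how Cufflinks was set to divide reads that match in several places is not given in the sources used here.

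**Figure D3:**
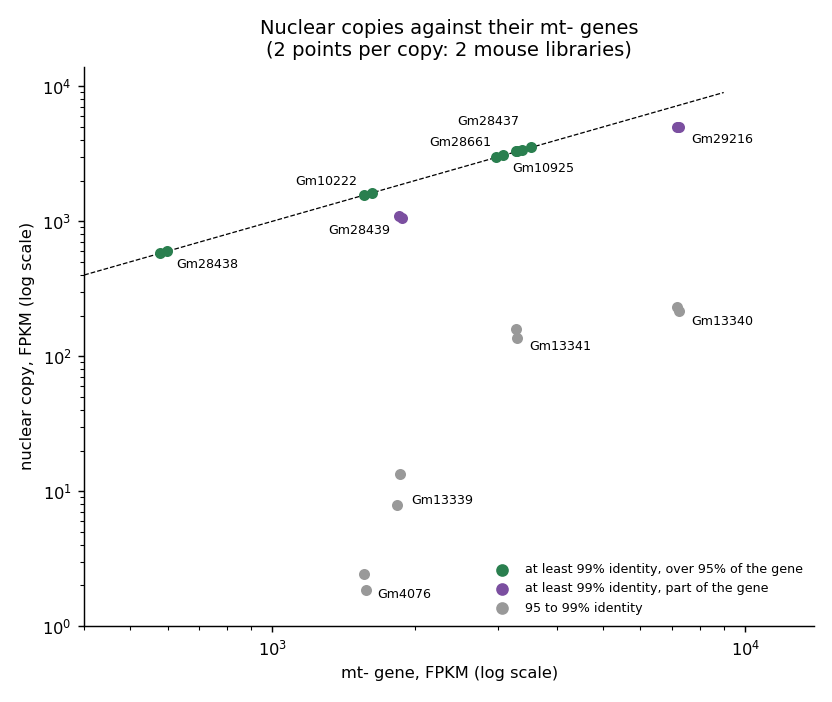
FPKM of 11 nuclear copies (vertical, log scale) against FPKM of their mitochondrial gene (horizontal, log scale), with 2 points per copy for the 2 mouse libraries; the dashed line marks equal values. The 5 copies that span nearly the whole gene at 99% identity or more (green) lie on the line, the 2 that span part of it (purple) below, and the 4 of 95 to 99% identity (grey) at 231 FPKM or less.

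The copies changed both the share and the order. The 7 copies on chromosome 1 made up 3.40% of the summed FPKM in each library, which with the 37 mitochondrial rows came to 12.1% and 12.0%. The FPKM of these copies was then added to their genes in proportion to length. With it mt-Co1 rose to 8800 FPKM and became the highest in both libraries. mt-Atp8, for which no annotated copy could be added, stayed at 7532 FPKM. Its values (8088 and 6976 FPKM) then overlapped those of mt-Co3 (6749 and 7045 FPKM), which was the higher of the 2 in replicate 2. mt-Co3, mt-Co2 and mt-Atp6 came to 6897, 6577 and 6043 FPKM and passed mt-Cytb, which stayed at 4032 FPKM. mt-Nd4l came to 3178 FPKM and passed mt-Nd1 (3109 FPKM) in the mean. Their values overlapped between the libraries, with 3115 and 3241 FPKM for mt-Nd4l and 3090 and 3128 FPKM for mt-Nd1. mt-Nd4 came to 2547 FPKM, and mt-Nd3 came to 1179 FPKM and remained the lowest. No annotated copy of this kind was found for mt-Atp8, mt-Cytb, mt-Nd1, mt-Nd6 or the rRNAs, and the tRNA genes are shorter than the 100 bases that the search required. On chromosome 1 a gap of 233 bases without an annotated gene lies between the copies of mt-Atp6 and mt-Co2, where mt-Atp8 lies in the mitochondrial genome. This gap was not searched, so the place of mt-Atp8 below mt-Co1 holds for annotated copies only. Whether reads of a row came from the mitochondrial or the nuclear gene was not tested.

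**Figure D4:**
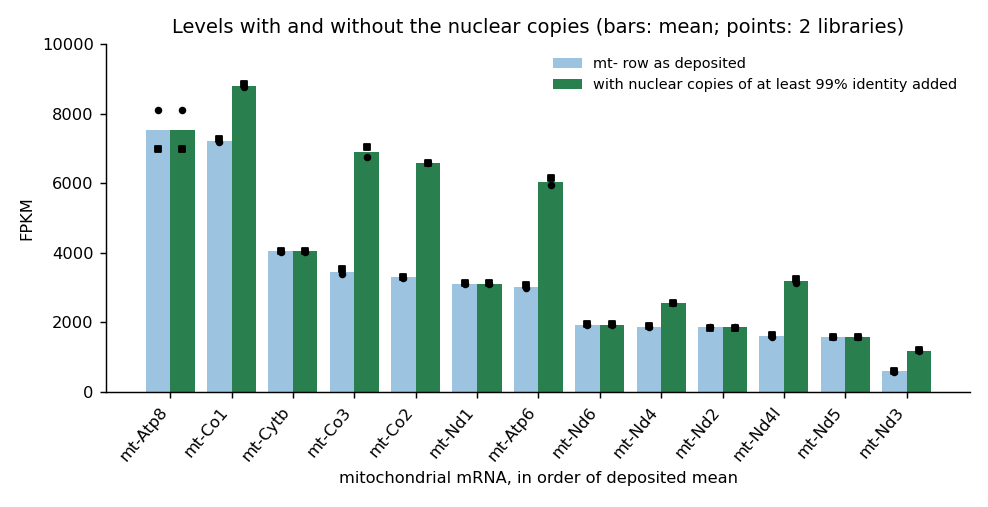
FPKM of the 13 mitochondrial mRNAs in mouse astrocytes, as deposited (blue bars) and with their nuclear copies of at least 99% identity added in proportion to length (green bars); bars are the mean of 2 libraries, circles replicate 1 and squares replicate 2. mt-Co3, mt-Co2 and mt-Atp6 rise from 3448, 3287 and 3021 FPKM to 6897, 6577 and 6043 FPKM. mt-Co1 takes the first place with 8800 FPKM, while mt-Atp8 has no annotated copy to add.

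The mitochondrial mRNAs stood well above the nuclear mRNAs for the same complexes. Complex I takes electrons from NADH. Its 7 mitochondrial mRNAs had a median of 1846 FPKM and its 37 nuclear subunits a median of 111 FPKM, from Ndufb4 (45.2 and 44.1 FPKM) to Ndufa3 (191.5 and 205.3 FPKM). Complex II, the succinate dehydrogenase, is wholly nuclear, and its 4 subunits had a median of 114 FPKM, from Sdhd (98.6 and 103.5 FPKM) to Sdhc (128.7 and 139.5 FPKM).

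Complex III passes electrons to cytochrome c. Its mt-Cytb was at 4032 FPKM in the mean and its 9 nuclear subunits had a median of 211 FPKM, from Uqcrfs1 (73.7 and 76.6 FPKM) to Uqcrh (346.1 and 369.4 FPKM). Complex IV reduces oxygen, and its 3 mitochondrial mRNAs had a median of 3448 FPKM. The 10 nuclear subunits of complex IV with a mouse row had a median of 278 FPKM, from Cox7b (155.5 and 167.5 FPKM) to Cox8a (389.1 and 454.4 FPKM). Cox4i1, a further listed subunit of complex IV, had no row in the mouse values.

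Complex V, the ATP synthase, had a median of 5277 FPKM over its 2 mitochondrial mRNAs and of 216 FPKM over 18 nuclear ones. These ran from Atp5g2 (110.03 and 116.5 FPKM) to Atp5b (641.1 and 691.9 FPKM). They included Atpif1 (168.0 and 172.2 FPKM), which encodes an inhibitor of ATP synthase rather than a subunit. The ratio of the medians was 16.7-fold in complex I, 19.1-fold in complex III, 12.4-fold in complex IV and 24.4-fold in complex V. With the annotated nuclear copies of at least 99% identity added to the mitochondrial mRNAs it was 17.4-fold, 19.1-fold, 24.8-fold and 31.4-fold. Complex IV was then no longer the lowest. Of the 78 nuclear genes of the complexes with a mouse row, which leave out Cox4i1 and include Atpif1, only Atp5b exceeded the lowest mitochondrial mRNA, mt-Nd3. The summed FPKM of the 13 mitochondrial mRNAs was 3.13 and 2.95 times that of the 78 nuclear ones.

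**Figure D5:**
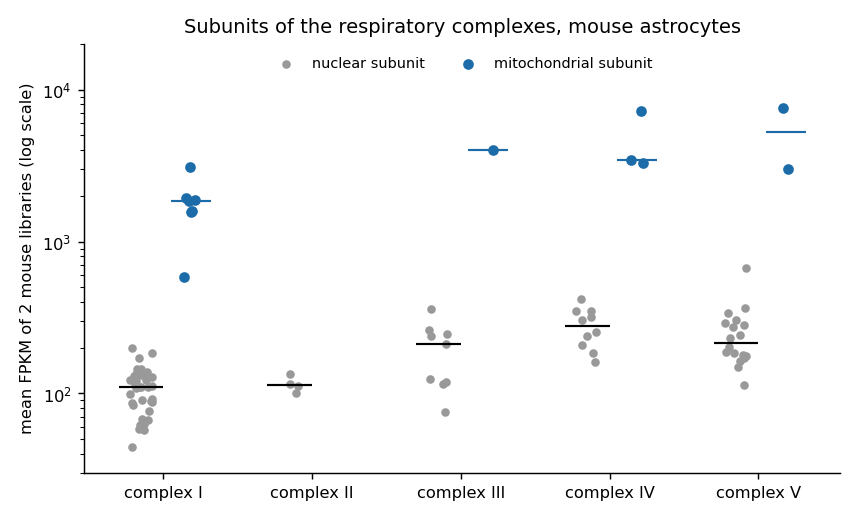
Mean FPKM of 2 mouse libraries (log scale) for each nuclear (grey) and mitochondrial (blue) subunit of respiratory complexes I to V, with lines at the medians. In each complex with mitochondrial subunits these lie above all nuclear subunits shown for the same complex, and complex II has none. Cox4i1 of complex IV had no mouse row and is not shown, and the nuclear points of complex V include the inhibitor gene Atpif1.

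The nuclear genes that copy, transcribe, process and translate the mitochondrial genome were measured in both species, and for these a species comparison was possible. Of 191 such genes, 190 had a mouse row and 155 could be matched to the ferret by symbol and tested. Differences are given as ferret minus mouse on the log2(FPKM + 1) scale, and a gene was called at an adjusted p under 0.05 (limma, Benjamini-Hochberg over 10204 genes) and an absolute difference above 1. Of the 155, 9 were higher in ferret, 33 lower, and 113 not called. The background over all 10204 genes was 13.1% called higher and 30.1% called lower. The median difference was -0.24 for the list and -0.35 for all genes.

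The balance of these calls depended on scaling. With the libraries rescaled to the same sum the median of all genes moved to -0.01 and that of the list to 0.11, with 25 genes of the list higher and 21 lower in ferret, against 19.1% higher and 21.7% lower over all genes. With quantile normalization the medians were 0.05 and 0.19, with 25 higher and 18 lower, against 20.4% in each direction over all genes. The list therefore had no direction that held under every scaling, and single genes are given below with their values in the 4 libraries. The counts of each smaller list below stand beside the same shares over all genes.

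Among 17 tested genes of mitochondrial DNA maintenance, 3 were higher and 4 lower in ferret, and 3 and 3 with either other scaling. Ssbp1, the single-strand DNA-binding protein of mitochondria, had 33.9 and 33.3 FPKM in mouse and 7.22 and 7.61 FPKM in ferret, a difference of -2.04 (SE 0.064, adjusted p = 1.18e-09 by limma). Exog, a nuclease, had 3.27 and 3.31 FPKM in mouse and 17.7 in each ferret library (difference 2.13). The highest member in mouse was Suclg1, a subunit of succinyl-CoA synthetase, at 81.1 and 79.4 FPKM.

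Of 8 tested transcription genes, 0 were higher and 2 lower in ferret, and 0 and 1 with either other scaling. Tfam, which packages mitochondrial DNA and helps to start its transcription, had 15.98 and 14.7 FPKM in mouse and 4.66 and 3.98 FPKM in ferret, a difference of -1.62 (SE 0.084, adjusted p = 4.08e-08 by limma). Polrmt, the mitochondrial RNA polymerase, had 5.60 and 5.95 FPKM in mouse and 6.98 and 7.27 FPKM in ferret, a difference of 0.26 that was not called (adjusted p = 0.00694 by limma), and this gene was chosen after its values were seen. The values of the species overlapped for neither gene. Mrpl12, a ribosomal protein also listed with transcription, was the highest member in mouse (38.3 and 42.6 FPKM) and had no ferret match.

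Of 17 tested genes of RNA processing and stability, 1 was higher and 2 lower in ferret, against 2 and 2 with equal library sums and 2 and 1 with quantile normalization. Rexo2, an oligoribonuclease, was highest in mouse with 128 and 132 FPKM and had 42.5 and 43.5 FPKM in ferret (difference -1.57). Pde12, which shortens poly(A) tails in mitochondria, had 2.97 and 2.95 FPKM in mouse and 10.5 and 11.8 FPKM in ferret (difference 1.61). Of 17 tested RNA modification genes, 1 was higher and 2 lower, a balance that turned to 3 and 1 with equal library sums and to 3 and 0 with quantile normalization. Trmt61b, a tRNA methyltransferase, had 4.44 and 3.81 FPKM in mouse and 11.0 and 11.5 FPKM in ferret, and Nsun3, which modifies the methionine tRNA, had 7.47 and 5.19 FPKM in mouse and 1.98 and 1.54 FPKM in ferret. The difference of Nsun3 was -1.40, and -0.98 and not called with quantile normalization. Gatc was highest in mouse (12.3 and 13.03 FPKM).

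Of 18 tested mitochondrial tRNA synthetases, which load the tRNAs with amino acids, 1 was higher and 3 lower in ferret, against 3 and 3 with equal library sums and 3 and 2 with quantile normalization. Mars2, for methionine, had 2.31 and 2.28 FPKM in mouse and 11.3 and 11.6 FPKM in ferret (difference 1.91). Lars2, for leucine, had 225.2 and 68.1 FPKM in the mouse duplicates, which thus differed more than 3-fold, and 7.52 and 7.67 FPKM in ferret. Its difference was -3.86 (SE 0.405, adjusted p = 8.51e-06 by limma), -3.01 without mouse replicate 1 and -4.72 without mouse replicate 2.

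Of 17 tested translation factors, 0 were higher and 2 lower in ferret, and 0 were called with either other scaling. Oxa1l, which inserts newly made proteins into the inner membrane, had 25.8 and 23.9 FPKM in mouse and 8.72 and 9.57 FPKM in ferret, and its difference of -1.35 became -0.98 with equal library sums and -0.95 with quantile normalization, neither of which was called. The elongation factor gene Tufm was highest in mouse (39.3 and 39.03 FPKM). Of 61 tested genes of the mitochondrial ribosome, 3 were higher and 18 lower in ferret, against 14 higher and 11 lower with either other scaling. Over all genes 13.1% were called higher and 30.1% lower. These shares were 19.1% and 21.7% with equal library sums and 20.4% in each direction with quantile normalization. Mrps6 was highest in mouse with 165 and 179 FPKM and had 19.6 and 18.6 FPKM in ferret (difference -3.11), and Mrpl47 had 10.4 and 10.6 FPKM in mouse and 39.1 FPKM in each ferret library (difference 1.80).

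Of 33 tested nuclear subunits of the respiratory complexes, 0 were higher in ferret, 14 were lower and 19 were not called; 11 were lower with equal library sums and 12 with quantile normalization. With either other scaling 0 were higher. Over all genes the share called lower was 30.1%, 21.7% and 20.4% in the same order, and the share called higher 13.1%, 19.1% and 20.4%. Uqcrq of complex III had 228.2 and 250.1 FPKM in mouse and 4.91 and 5.61 FPKM in ferret (difference -5.26). Ndufc1 of complex I had 186 and 184 FPKM in mouse and 5.86 and 5.91 FPKM in ferret (difference -4.76), and Cox5b of complex IV had 228.2 and 249.9 FPKM in mouse and 16.9 and 19.02 FPKM in ferret (difference -3.66). Sdhc, the only complex II gene tested, had a difference of -1.90, and 0 of 2 tested complex V genes were called. The values of each species came from its own annotation, so species, gene model and culture cannot be told apart. The markers of cell types also differed between the species. All 9 tested microglial, all 8 fibroblast, the 1 tested endothelial and 7 of 11 astrocyte markers were lower in ferret (Apoe by -7.93, Slc1a2 by -5.45), and 1 astrocyte marker was higher (S100b, 2.01). Of the oligodendrocyte lineage 3 of 7 tested markers were higher (Sox10 by 4.54) and of the neuronal markers 3 of 4, with 0 lower in either. The part of the cell types in the differences above was not tested.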

How the data were processed

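FPKM per gene was deposited by the authors for each of 4 libraries (bcl2fastq 2.17, STAR 2.7.0f and Cufflinks 2.2.1 per the submitters' processing notes), on GRCm38 with Ensembl release 99 for the mouse. Libraries were made from 500 ng of RNA and sequenced from paired ends. STAR was run with default settings, and the options of Cufflinks for reads that match in several places and for strand are not given in the sources used here. The deposited FPKM sums to 525962 and 535899 in the mouse and 238385 and 247918 in the ferret libraries and holds no counts. Read counts listed with the study were not used here, and no depth or counting interval is given.

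Each library was assigned to its species and replicate number by its title. Gene positions and sequences came from GENCODE M21 on the same build, which may differ in release from the authors' annotation. Copies were searched with blastn 2.17.0 among annotated transcripts only. Levels within the mouse are given as a mean ± SD of 2 libraries without a test. Symbols of the species were matched without case (13373 shared), the value of highest mean was kept for repeated symbols, and the 10204 genes averaging 1 FPKM or more in a species were compared on log2(FPKM + 1) with limma 3.58.1 in R 4.3.3 (trend, two-sided, Benjamini-Hochberg). The fit was tested on simulated data. Adjusted p-values measure only the spread between these libraries, which may be technical, and an exact permutation test of 2 against 2 libraries cannot pass 0.05 for a single gene. Differences of low genes are understated by the pseudocount of 1.

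The named genes were all mitochondrial mRNAs and rRNAs, the 6 highest tRNA rows, the nuclear copies, the highest member and the most changed called gene in each direction of each list, the highest and lowest nuclear subunit of each complex, nuclear rows above the median mitochondrial mRNA (a limit set after the data were seen, as none lay above the highest) and astrocyte markers. Members and lists were chosen with earlier results of these data known. Alternatives changed the rows counted, scaling, pseudocount, filter, repeated symbols, replicate block and libraries. The ferret genome, protein sequences and sequence around the genes were not used here.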

Additional observations from a re-analysis of the deposited data

How the results depend on the processing

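The mitochondrial share of summed mouse FPKM (8.64%) was 1.93% when each FPKM was multiplied by exonic length, 7.84% without the tRNA rows and 12.03% with the chromosome 1 copies counted in, and 7.32% without mt-Atp8, the last 2 being alternatives chosen after seeing the data. It moved by less than the SD of the duplicates with protein-coding rows alone, without the rRNA rows and with rows of at least 1 FPKM, and was 8.57% to 8.70% with either library left out. The median mRNA level of 3021 FPKM became 3178 FPKM with copies of at least 95% or at least 99% identity added (the latter chosen after seeing the data), and was 2974 to 3069 FPKM with a library left out. The median duplicate difference of the mRNAs (0.018 on the log2 scale) lay between -0.04 and 0.02 under 5 alternatives. That range was smaller than the spread over all mRNAs (SD 0.07), but not smaller than the spread without mt-Atp8 (SD 0.023). The median needs both libraries, so none could be left out.

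Among all genes, the number higher in ferret went from 1336 to 2080 with quantile normalization, and the number lower from 3069 to 2082. In the list of nuclear genes of mitochondrial gene expression, the 9 higher and 33 lower became 25 and 21 with equal library sums and 25 and 18 with quantile normalization. Pseudocount, filter and repeated symbols left these counts within 1.5-fold. With a library left out, 4380 to 4427 genes were called in all (1316 to 1372 higher, 3049 to 3095 lower) and 41 to 42 in the list (8 to 10 higher, 32 to 33 lower), the lone library of a species then being assumed to vary like the other species' pair. The species share replicate numbers 1 and 2, but their animals differ and the deviations of same-numbered libraries had a correlation of 0.00995 over 10204 genes. With the replicate block, 4414 genes were called in all (1342 higher, 3072 lower), 42 in the list (9 and 33) and 14 among respiratory subunits. Oxa1l lost its call under both other scalings, and Nsun3 (-0.98) under quantile normalization. The respiratory subunits were set against the same alternatives after the data were seen.

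FPKM carries no depth, which limits the tRNA rows, where several values were only 1 or 2 steps.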
